A study of Rattus norvegicus with 10 samples.

Results

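The nuclear genes for the subunits of the respiratory chain and of ATP synthase were examined in the liver of EHBR and SD rats. Members were taken by symbol from the genes annotated as protein coding. These were symbols beginning with Nduf (complex I and its assembly factors), Uqcr together with Cyc1 (complex III), Cox with a numeral from 4 to 8 (complex IV) and Atp5 (complex V, the ATP synthase), and Sdha, Sdhb, Sdhc and Sdhd (complex II). Of 98 genes with such symbols, 89 had at least 1 TPM (a transcript's share of all transcripts in a sample, corrected for transcript length) in at least 5 of 10 samples. They are 89 of the 11083 genes that met this limit, out of 32883 in the files. They comprised 37 complex I genes, 4 of complex II, 10 of complex III, 13 of complex IV, 17 of complex V and 8 complex I assembly factors (symbols beginning with Ndufaf). Grouping was by symbol alone, so a complex here can include genes whose products are not subunits of it, such as Atp5if1, the ATP synthase inhibitor.

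The samples were whole liver from 5 EHBR and 5 SD males, all aged 5 weeks, with no treatment given in the labels. EHBR, the Eisai hyperbilirubinemic rat, lacks a working Abcc2 (Mrp2), the pump that carries conjugated bilirubin into bile, and descends from Sprague-Dawley stock, from which the SD controls take their name. The groups therefore differ by breeding history as well as by Abcc2. Abcc2 itself had 10.1 to 17.6 TPM in EHBR livers and 60.0 to 271 TPM in SD livers, with no overlap. The labels number the rats 1 to 5 within each strain. Over all genes, numbers 4 and 5 stood apart from numbers 1 to 3 in both strains, and the labels do not say what the numbers stand for. That division was seen in these data, so the difference between the numbers is described below with no test. Strain values are given within each part of it, and whether they differ between the parts was tested. Depth was 13.8 to 19.6 M reads per sample, recovered from the deposited values.

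The respiratory chain passes electrons from NADH (complex I) and succinate (complex II) through coenzyme Q to complex III, cytochrome c and complex IV, which reduces oxygen. Complexes I, III and IV pump protons out of the mitochondrial matrix, and complex V lets them return while it makes ATP. Most subunits are encoded in the nucleus and are imported, whereas a core set is encoded on mitochondrial DNA, so each complex except complex II is built from both genomes. Hepatocytes hold many mitochondria and use this ATP for urea synthesis, glucose production and bile formation. In whole liver, fewer cells of a type and less RNA per cell cannot be told apart.

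The 89 members together took 2.19 to 2.67% of all TPM in EHBR livers and 1.85 to 2.89% in SD livers, so the groups overlapped. Complex V took the largest share of the 5 complexes, 0.797 ± 0.064% in EHBR and 0.753 ± 0.148% in SD (standard deviation, n = 5 each). Complex I took 0.688 ± 0.060% in EHBR and 0.712 ± 0.134% in SD, and complex IV 0.557 ± 0.038% in EHBR and 0.558 ± 0.106% in SD. Complex III took 0.234 ± 0.022% in EHBR and 0.221 ± 0.049% in SD. For these 4 complexes the strains differed by less than the spread among the rats of either strain. Complex II took 0.089 ± 0.005% in EHBR and 0.076 ± 0.007% in SD. Its lowest EHBR sample and highest SD sample were both at 0.085%.

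**Figure D1:**
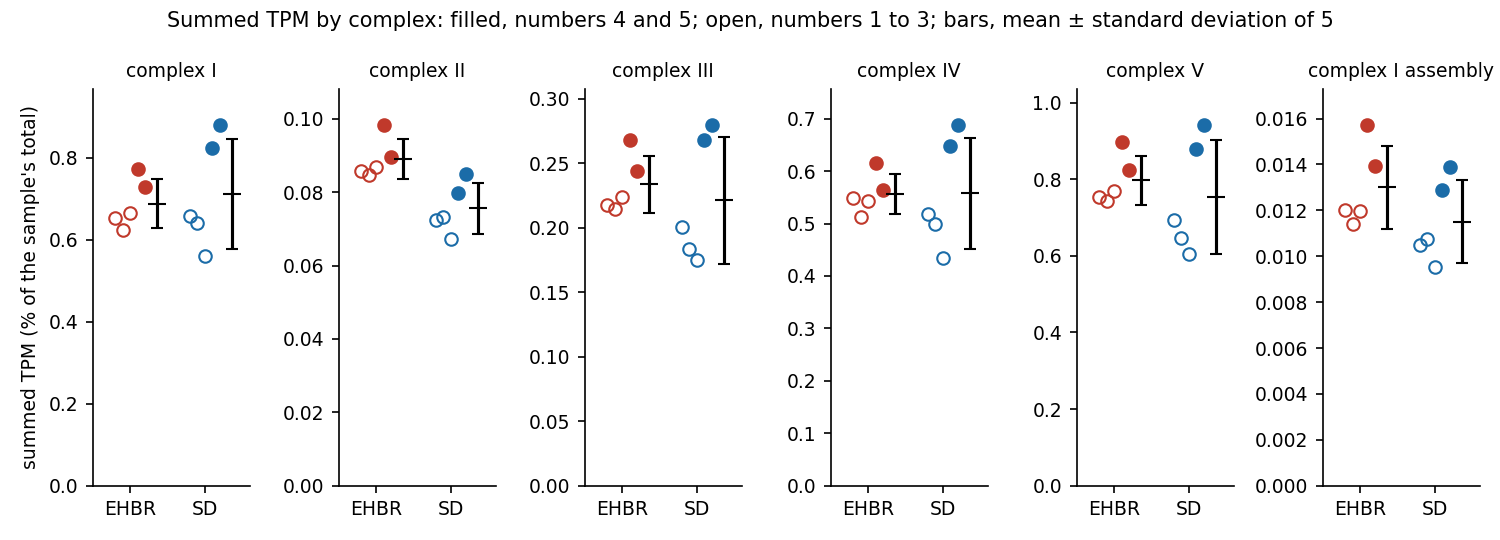
Summed TPM of the members of each complex, as a percent of the sample's total TPM (y axis, each panel from 0), in 5 EHBR and 5 SD livers. Points are samples, filled for numbers 4 and 5 and open for numbers 1 to 3, and bars give the mean ± standard deviation of 5. In each of the 6 panels, samples 4 and 5 lie above samples 1 to 3 of the same strain, and SD samples spread more widely than EHBR samples in each of the 5 complexes.

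On the TPM scale, levels differed widely between subunits of 1 complex. The mean over 10 samples of a complex V gene ranged from 11.4 TPM (Atp5pb, stalk subunit b) to 1391 TPM (Atp5f1b, the catalytic beta subunit), with a median of 414 TPM over the 17 genes. Complex IV genes had a median of 459 TPM and were led by Cox4i1, a subunit needed to assemble the complex, with 913 ± 37.1 TPM in EHBR and 881 ± 109 TPM in SD. Complex I genes had a median of 170 TPM and were led by Ndufa4, with 473 ± 31.0 TPM in EHBR and 548 ± 64.3 TPM in SD. Ndufa4 carries a complex I symbol but its protein is now counted with complex IV. The medians were 198 TPM for complex II and 236 TPM for complex III. The complex I assembly factors, which help to build the complex and are not part of it, had a median of 11.1 TPM.

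The tissue isoforms were those of liver. Several subunits are made from paired genes, of which one serves most tissues and the other serves mainly heart and skeletal muscle, lung or testis. The widely used Cox6a1 had 705 ± 17.3 TPM in EHBR and 687 ± 110 TPM in SD, and Cox8a had 614 ± 65.4 TPM in EHBR and 604 ± 160 TPM in SD. The muscle isoforms Cox6a2, Cox7a1 and Cox8b and the testis isoform Cox8c did not reach 1 TPM in any of the 10 samples, nor did Ndufa4l2, and they were not kept. Cox4i2, a lung isoform, reached 1 TPM in 1 SD sample. Cox6b2, a testis isoform, was just inside the limit, with 0, 0.445, 1.17, 1.19 and 1.32 TPM in EHBR and 0.150, 0.615, 1.07, 1.41 and 2.55 TPM in SD. Of 9 striated muscle markers in the files none was kept, and their summed TPM was at most 0.379 in EHBR and 0.448 in SD. The 3 genes for subunit c of the ATP synthase ring encode the same mature protein behind different import sequences. Atp5mc1 was at 760 ± 126 TPM in EHBR and 651 ± 250 TPM in SD, and Atp5mc3 at 738 ± 106 TPM in EHBR and 689 ± 147 TPM in SD. Atp5mc2 was the lowest in both strains, at 446 ± 50.9 TPM in EHBR and 487 ± 98.5 TPM in SD.

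Of the 89 members, 7 were higher and 0 were lower in EHBR than in SD by limma on log2(TPM + 1), with Benjamini-Hochberg adjustment over all 11083 genes and a threshold of 0.05. Of all genes, 3.82% were called higher and 1.63% lower. At an unadjusted p under 0.05 the counts of members were 11 higher and 1 lower. For the strain fits, here and below, the share of all genes at that unadjusted threshold was not counted, so these counts lack a background. The 7 were both core proteins of complex III (Uqcrc1 and Uqcrc2), both subunits of the ATP synthase catalytic head (Atp5f1a and Atp5f1b), 2 complex I subunits (Ndufs1 and Ndufa10l1) and 1 assembly factor (Ndufaf6). In each of the 7, every EHBR sample was above every SD sample, and no other member separated the strains. All genes did so in 6.45% of cases above and in 2.02% below.

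Fold changes of these 7 are ratios of mean TPM, and log2 differences are on the log2(TPM + 1) scale. Ndufaf6, an assembly factor that acts early in building complex I in human cells, had the largest difference of any member. It had 15.6, 19.1, 16.0, 19.8 and 14.5 TPM in EHBR livers 1 to 5, against 4.23, 4.78, 2.96, 5.23 and 8.86 TPM in SD livers 1 to 5. The lowest EHBR sample was number 5 and the highest SD sample was also number 5, and the groups did not overlap. The mean was 3.26-fold higher in EHBR, a log2 difference of 1.59 ± 0.21 (standard error; adjusted p = 0.00145 by limma). The gene lies on chromosome 5 from 24297094 to 24320786 on the minus strand (rn6). The other 7 assembly factors were not called and ranged from -0.17 for Ndufaf8 to 0.37 for Ndufaf2.

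Among complex I subunits, Ndufa10l1 is the files' symbol for a gene at chromosome 9 from 99617052 to 99651813 on the minus strand (rn6). RefSeq's GRCr8 annotation gives chromosome 9 to Ndufa10, an accessory subunit of the matrix arm, and places Ndufa10l1 on chromosome 6. The gene had 109, 114, 109, 108 and 104 TPM in EHBR livers 1 to 5 and 75.5, 68.3, 68.0, 73.7 and 78.1 TPM in SD livers 1 to 5. Samples of each strain lay close together, and the log2 difference was 0.58 ± 0.08 (adjusted p = 0.00145 by limma). Ndufs1, the largest core subunit and a carrier of iron-sulfur clusters, had 71.8, 78.2, 74.1, 92.3 and 83.4 TPM in EHBR and 47.4, 54.0, 52.2, 62.2 and 65.6 TPM in SD. Its log2 difference was 0.50 ± 0.11 (adjusted p = 0.0214 by limma), and the call was lost without EHBR 2, EHBR 4, EHBR 5 or SD 1, with adjusted p up to 0.0553. Of the other 35 complex I genes, none was called, and they ranged from -0.74 (Ndufa1) to 0.29. The median of the 37 was -0.02, below the 0.15 of all 11083 genes.

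In complex III, Uqcrc2 (chromosome 1, 190555177 to 190585734, plus strand, rn6) had 203, 203, 201, 216 and 207 TPM in EHBR and 143, 149, 137, 162 and 146 TPM in SD. The log2 difference was 0.48 ± 0.07 (adjusted p = 0.0032 by limma). Uqcrc2 overlaps Pdzd9 on the other strand. The strand setting of the counting was not stated, so reads of that pair may be mixed. Uqcrc1 had 212, 208, 218, 244 and 208 TPM in EHBR and 162, 154, 145, 176 and 201 TPM in SD. Its log2 difference was 0.38 ± 0.10 (adjusted p = 0.0478 by limma), just past the threshold. Its call was lost in 9 of the 10 fits that left 1 sample out, all but that without SD 5, with adjusted p up to 0.111. These 2 genes encode the core proteins on the matrix side of the complex, and neither carries electrons. Those that do, Cyc1 (cytochrome c1) and Uqcrfs1 (the Rieske iron-sulfur protein), had log2 differences of 0.34 and 0.22 and were not called (adjusted p = 0.269 and 0.273 by limma).

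In complex V, Atp5f1a, the alpha subunit of the catalytic head, had 635, 694, 669, 735 and 680 TPM in EHBR and 484, 494, 454, 522 and 542 TPM in SD. The log2 difference was 0.45 ± 0.08 (adjusted p = 0.00735 by limma). Atp5f1b, the catalytic beta subunit, had 1657, 1634, 1569, 1496 and 1405 TPM in EHBR and 1186, 1191, 1212, 1233 and 1321 TPM in SD. Its log2 difference was 0.34 ± 0.08 (adjusted p = 0.0381 by limma). The strains were closest in number 5. The call of Atp5f1b was lost in 8 of the 10 fits that left 1 sample out, all but those without EHBR 5 or SD 5, with adjusted p up to 0.121 by limma. With the replicate number as a replicate block, its adjusted p was 0.0583. Atp5f1a, Ndufa10l1, Ndufaf6 and Uqcrc2 were called in all 10 fits that left 1 sample out. The other 15 complex V genes were not called, and the lowest of them was Atp5f1e, the epsilon subunit of the central stalk, at -0.17.

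Complex IV and complex II had no called gene. Complex IV differences ranged from -0.28 for Cox7c to 0.28 for Cox5b, with a median of 0.01. All 4 genes of complex II were on the higher side, at 0.17 (Sdhb), 0.19 (Sdhc), 0.29 (Sdhd) and 0.38 (Sdha, the flavoprotein that oxidises succinate). Sdha had 204, 221, 214, 168 and 179 TPM in EHBR and 165, 184, 168, 131 and 115 TPM in SD, so the strains overlapped, with an adjusted p of 0.148 by limma. With the replicate block, its adjusted p was 0.0326. Over all members the median difference was 0.02 and 52 of 89 were above 0 (58.4%), whereas 73.1% of all genes were.

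**Figure D2:**
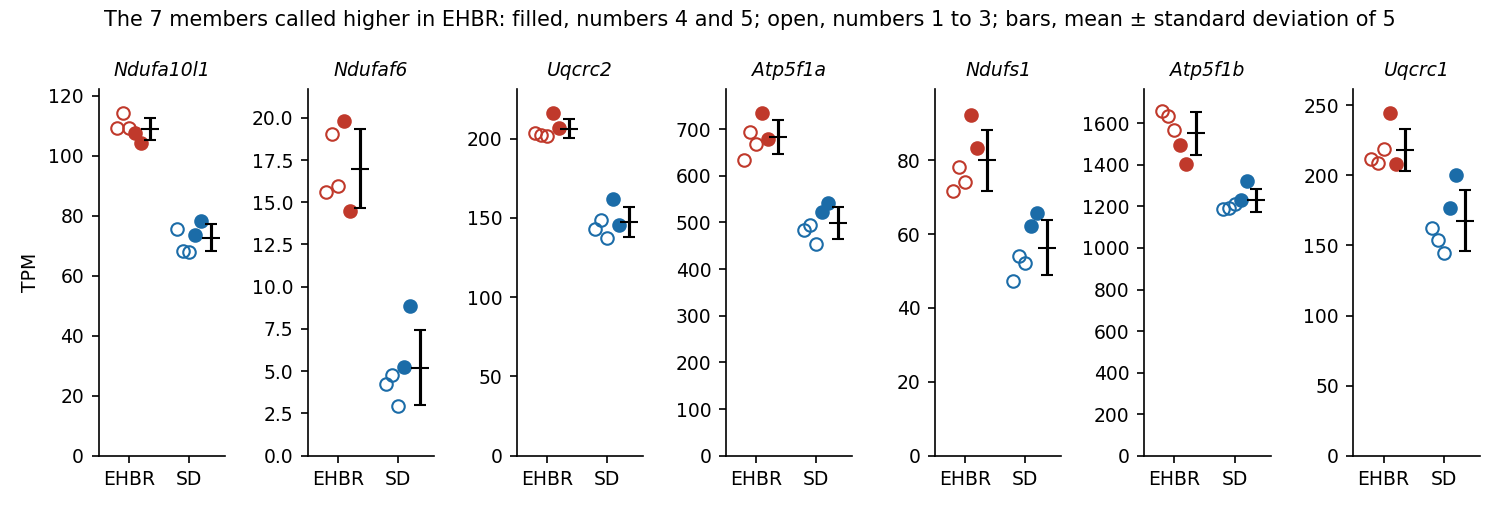
TPM of the 7 members called higher in EHBR (y axis of each panel, from 0) in 5 EHBR and 5 SD livers. Points are samples, filled for numbers 4 and 5 and open for numbers 1 to 3, and bars give the mean ± standard deviation of 5. No EHBR sample overlaps an SD sample in any panel.

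**Figure D3:**
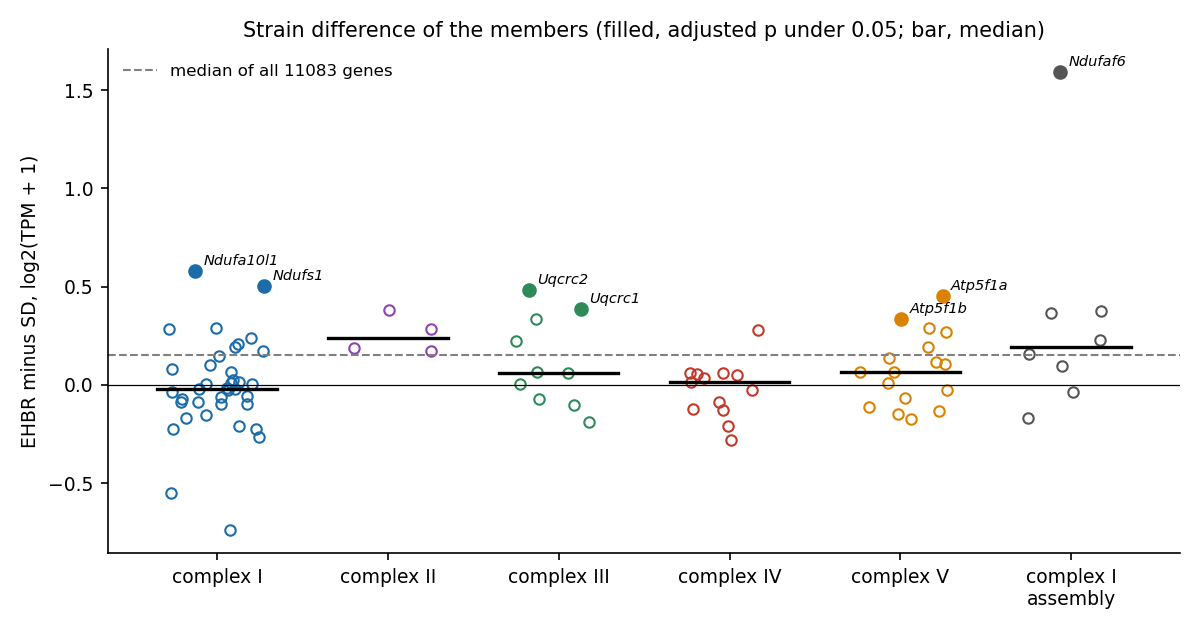
Log2 difference of EHBR minus SD for each of the 89 members (y axis), by complex. Filled points passed an adjusted p of 0.05, bars are medians, and the dashed line is the median of all 11083 genes, 0.15. The medians of complexes I, III, IV and V lie below that line.

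The scale of the samples bears on these calls. The median of all genes was higher in EHBR by 0.15, and when each sample was centred on its own median over the 11083 genes, that shift became -0.02. Then 1 member, Ndufaf6, was called higher and 0 were called lower, where 1.74% of all genes were called higher and 2.40% lower by limma. At an unadjusted p under 0.05 those counts were 4 and 1. The median member difference was -0.15 after centring. The 7 calls are therefore differences relative to total TPM, and 6 of them were lost in this fit relative to the median gene. Their log2 differences stayed above 0, at 0.41 for Ndufa10l1, 0.33 for Ndufs1, 0.31 for Uqcrc2, 0.28 for Atp5f1a, 0.21 for Uqcrc1 and 0.17 for Atp5f1b, and Ndufaf6 had 1.42. With centring and a term for the division into numbers together, 4 of the 7 were called (Ndufaf6, Ndufa10l1, Uqcrc2 and Ndufs1), with adjusted p of 0.00231, 0.0203, 0.0282 and 0.03 by limma. In that fit 4 other members were called lower (Cox7c, Ndufa6, Ndufa12 and Ndufaf8), and of all genes 4.40% were called higher and 6.34% lower. The division was taken from these same data, so p-values of fits with a term for it, here and below, may be too small. Calls of such fits are given as alternatives and not as further evidence.

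Promoter sequences of the called genes are shown because the members share regulators known from other mammals. Nrf1 (nuclear respiratory factor 1), the ETS factor Gabpa and Yy1 bind many promoters of respiratory chain genes. RefSeq promoters (GRCr8, 250 bases before to 50 after the start, 300 in all) matched 73 of the 89 members by symbol and chromosome. They were searched on both strands for GCGCATGC (the NRF-1 core), CCGGAAG (the ETS core) and AAGATGGC (the YY1 core). At least 1 was in 34 of 73 member promoters (46.6%) and in 13.28% of all 33469 promoters. The 33469 were not limited to protein-coding genes or to genes within the TPM limit, as the members were. Whether other expressed coding genes hold these motifs as often was not tested. The NRF-1 core was in 13.7% of member promoters and 2.47% of all, the ETS core in 28.8% and 8.75%, and the YY1 core in 20.5% and 3.17%. In no member promoter did 2 of these motifs overlap. Of the 5 called members with a promoter, 4 held a motif, and these are printed 5′ to 3′ on the gene's strand with the motifs in capitals. Where the capitals read CTTCCGG, the ETS core is on the other strand.
Uqcrc1, chr8:118467973-118468272, plus strand: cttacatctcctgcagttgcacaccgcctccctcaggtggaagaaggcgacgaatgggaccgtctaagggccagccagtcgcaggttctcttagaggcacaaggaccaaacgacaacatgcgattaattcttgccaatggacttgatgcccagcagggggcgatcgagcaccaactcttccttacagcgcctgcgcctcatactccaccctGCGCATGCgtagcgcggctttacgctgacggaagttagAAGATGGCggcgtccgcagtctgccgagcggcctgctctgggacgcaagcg
Uqcrc2, chr1:184598990-184599289, plus strand: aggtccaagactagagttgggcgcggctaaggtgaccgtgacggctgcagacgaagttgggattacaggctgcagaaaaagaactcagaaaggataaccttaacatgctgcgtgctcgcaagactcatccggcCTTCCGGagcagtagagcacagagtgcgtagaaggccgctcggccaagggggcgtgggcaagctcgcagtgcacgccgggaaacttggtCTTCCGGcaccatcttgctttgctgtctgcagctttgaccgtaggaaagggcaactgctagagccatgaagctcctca
Atp5f1a, chr18:73567287-73567586, plus strand: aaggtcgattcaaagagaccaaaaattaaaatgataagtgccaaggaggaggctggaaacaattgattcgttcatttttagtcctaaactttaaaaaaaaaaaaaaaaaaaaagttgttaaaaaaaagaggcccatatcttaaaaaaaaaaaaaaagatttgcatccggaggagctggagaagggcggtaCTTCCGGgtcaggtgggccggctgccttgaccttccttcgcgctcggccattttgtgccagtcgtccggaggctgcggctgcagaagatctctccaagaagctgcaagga
Ndufs1, chr9:72073556-72073855, minus strand: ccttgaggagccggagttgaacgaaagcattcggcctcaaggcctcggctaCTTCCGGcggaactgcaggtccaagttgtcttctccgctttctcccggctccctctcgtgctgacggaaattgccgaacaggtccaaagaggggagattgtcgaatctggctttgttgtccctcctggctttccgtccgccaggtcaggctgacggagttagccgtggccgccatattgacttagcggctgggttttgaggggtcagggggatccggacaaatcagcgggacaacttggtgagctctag
Uqcrc1 holds an NRF-1 core and, across its start site, a YY1 core, whereas Uqcrc2 holds 2 ETS cores. Of these letters none was found in the window of Atp5f1b. Members with a motif had a median strain difference of 0.06 and matched members with none had 0.00, with medians between numbers of 0.21 and 0.24 in EHBR and of 0.46 and 0.49 in SD. A match describes the letters of a window and does not show that a factor binds there.

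The strain difference followed transcript length among the members. Lengths were recovered from the deposited upper-quartile FPKM for all 89. Their median was 726 bases (213 to 7359), and that of the 11044 genes with a recovered length was 2164.5 bases. Within a sample, TPM over FPKM, another deposited unit, is the same for all genes if both use the same lengths and reads. Its mean log2 was 0.65 for Ndufa10l1 and 0.64 for Uqcrc1, but -0.37 for Uqcr10, 0.11 for Ndufb6 and 0.22 for Ndufc1. For Uqcrb on chromosome 7 it was 1.09, and for Atp5pb 1.33. The TPM of such genes may rest on other lengths or reads than those recovered. The 33 members of 1000 bases or more had a median difference of 0.22, 29 of them were above 0, and they held all 7 calls (21.2%), where 4.09% of all genes of that length were called higher. The 56 members under 1000 bases had a median of -0.05, 23 were above 0 and none was called, where 2.07% of all genes under that length were called higher. Over all genes the medians were 0.17 and -0.01 in the same length classes. The rank correlation of strain difference with length was 0.62 over the 89 members and 0.25 over all genes, given as a description across genes, which share the same 10 libraries. When a trend on length was removed from every sample, 2 members (2.25%) were called higher and 0 lower by limma, where 2.23% of all genes were called higher and 2.63% lower. At an unadjusted p under 0.05 those counts were 7 and 2. With the length trend removed and a term for the numbers, 6 of the 7 were called higher and 1 member lower, where 5.18% of all genes were called higher and 5.55% lower. The part of length in the calls was not tested further.

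**Figure D4:**
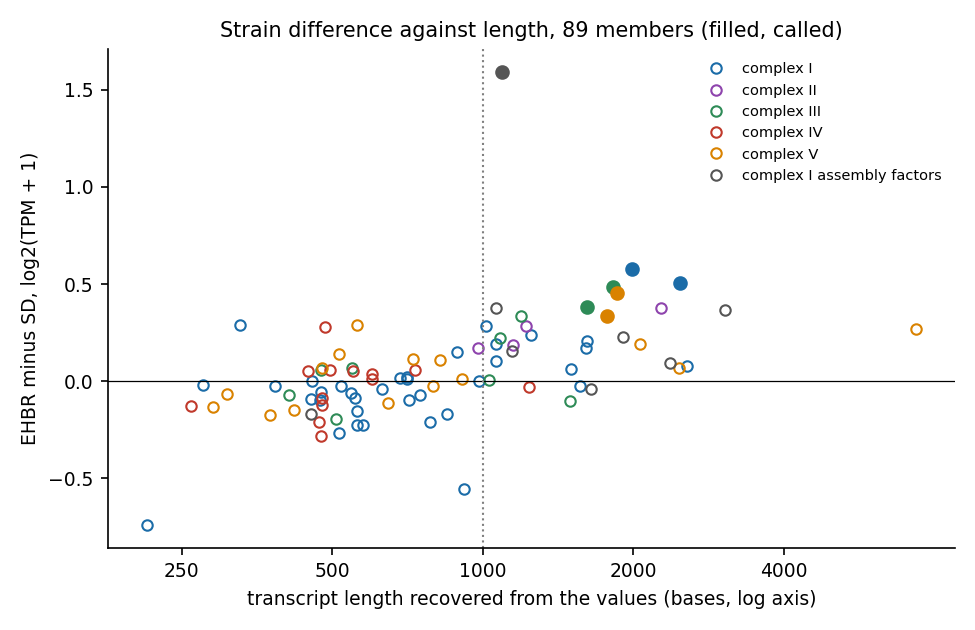
Log2 difference of EHBR minus SD (y axis) against recovered transcript length in bases (log x axis) for the 89 members, coloured by complex. Filled points were called, and the dotted line marks 1000 bases. All 7 called members are to the right of that line, and most members to the left of it lie at or below 0.

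A division by number ran through these genes as well. On the log2 scale the median member was higher in numbers 4 and 5 than in numbers 1 to 3 by 0.22 in EHBR and by 0.48 in SD. The median of all genes went the other way, at -0.12 in EHBR and -0.32 in SD. This difference moved with transcript length, and the members are shorter than most genes. Under 1000 bases, all genes had medians of 0.04 in EHBR and 0.06 in SD, and members 0.24 and 0.53. At 1000 bases or more, all genes had -0.13 in EHBR and -0.35 in SD, and members 0.09 and 0.32. The shares of all genes given next are not matched for length. In EHBR both samples 4 and 5 were above all of samples 1 to 3 in 56 members, against 12.0% of all genes, and below them in 5 members, against 33.6%. In SD they were above in 74 members, against 11.2% of all genes, and below in 3, against 51.4%. In 55 members they were above in both strains, against 5.49% of all genes, and in 1 member, Sdha, they were below in both, against 25.5%. The 7 members called between the strains differed less between the numbers than between the strains. The fit that called them counts a difference between the numbers as spread, so this is in part a condition of the call. Of all 89 members 9 did so, and of all 11083 genes 2329 did. Among the 7, Uqcrc2 had 0.06 between the numbers in EHBR and 0.10 in SD, beside 0.48 between the strains.

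All complexes took part. Both strains were above in 26 of 37 complex I genes, 3 of 4 complex II genes, 6 of 10 complex III genes, 6 of 13 complex IV genes, 11 of 17 complex V genes and 3 of 8 assembly factors. The summed TPM of complex V was 0.824 to 0.897% in EHBR numbers 4 and 5 and 0.743 to 0.770% in EHBR numbers 1 to 3. In SD it was 0.880 to 0.942% in numbers 4 and 5 and 0.605 to 0.693% in numbers 1 to 3. Complex I took 0.727 to 0.771% in EHBR numbers 4 and 5 against 0.623 to 0.665% in numbers 1 to 3, and 0.823 to 0.879% in SD numbers 4 and 5 against 0.559 to 0.658% in numbers 1 to 3. Neither complex overlapped between the numbers within a strain.

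Single genes show the size of this division. Atp5mc1, for subunit c of the proton-carrying ring, had 964 and 796 TPM in EHBR numbers 4 and 5, against 672, 663 and 704 TPM in EHBR numbers 1 to 3. In SD it had 818 and 1003 TPM in numbers 4 and 5, against 550, 453 and 430 TPM in numbers 1 to 3. The log2 difference was 0.37 in EHBR and 0.93 in SD, the most positive of any member in SD. Ndufv2, a core complex I subunit near the site of NADH oxidation, had 393 and 350 TPM in EHBR numbers 4 and 5, against 271, 259 and 248 TPM in numbers 1 to 3. In SD it had 346 and 407 TPM in numbers 4 and 5, against 228, 233 and 190 TPM in numbers 1 to 3. In both genes every sample 4 or 5 was above every sample 1 to 3 of its strain. Ndufaf8, an assembly factor, had 60.4 and 60.1 TPM in EHBR numbers 4 and 5 against 35.6 to 37.2 TPM in numbers 1 to 3. Its log2 difference of 0.71 was the most positive of any member in EHBR. Of 4 members lower on average in numbers 4 and 5 in both strains, Sdha was the 1 whose samples did not overlap, with log2 differences of -0.30 in EHBR and -0.49 in SD, while its partners Sdhb, Sdhc and Sdhd were all higher in numbers 4 and 5.

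**Figure D5:**
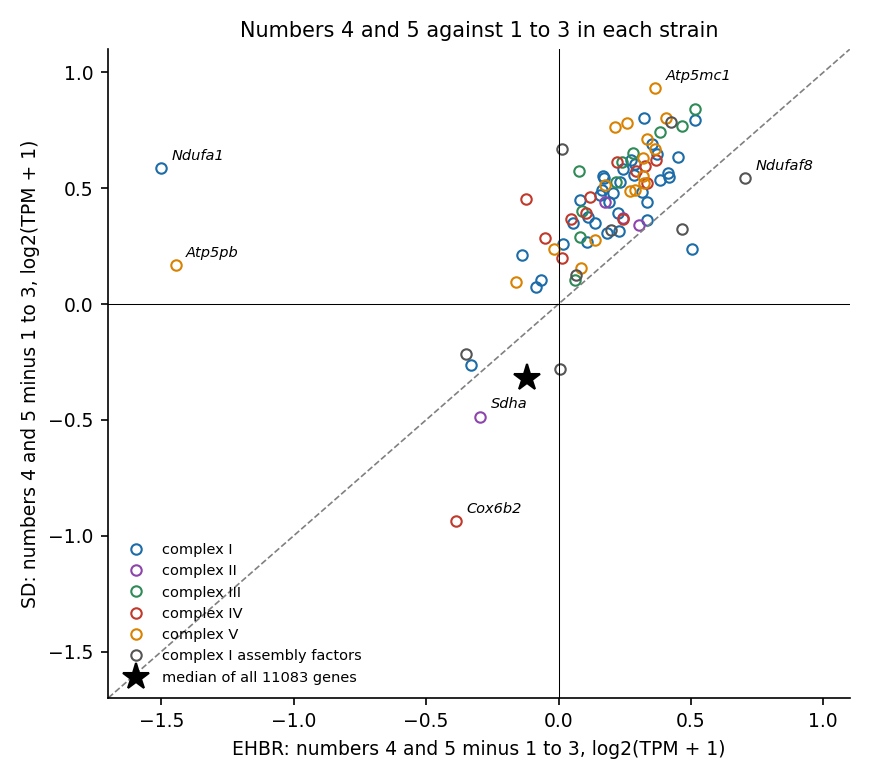
Log2 difference of numbers 4 and 5 minus numbers 1 to 3 in EHBR (x axis) and in SD (y axis) for the 89 members, coloured by complex. The dashed line marks equal differences, and the star is the median of all 11083 genes (-0.12 in EHBR, -0.32 in SD). Most members lie at the upper right, above both zero lines and the dashed line, and Sdha lies at the lower left.

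In 83 of 89 members (93.3%) the signed difference, numbers 4 and 5 minus 1 to 3, was more positive in SD than in EHBR, against 30.7% of all genes. In absolute size it was larger in SD in 80 members (89.9%), against 73.2% of all genes. The strain differences within the 2 parts of the division are given side by side. Among numbers 4 and 5 the median member difference, EHBR minus SD, was -0.13 and 26 of 89 were above 0. Among numbers 1 to 3 the median was 0.13 and 68 of 89 were above 0. All genes had a median of 0.27 among numbers 4 and 5 and of 0.07 among numbers 1 to 3, the opposite order. Complexes I, III, IV and V had medians of -0.17, -0.14, -0.14 and -0.16 among numbers 4 and 5 and of 0.09, 0.19, 0.13 and 0.22 among numbers 1 to 3. Complex II was positive in both, at 0.14 among numbers 4 and 5 and 0.26 among numbers 1 to 3.

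The difference of the strain differences, tested by limma's interaction term, was called for 0 of 89 members and for 0.271% of all genes. At an unadjusted p under 0.05 there were 24 members (27.0%), against 20.3% of all genes. The median interaction was -0.27 in the members and 0.19 in all genes. These values moved with the scale. With FPKM there were 40 members, against 18.4% of all genes, and medians of -0.35 in the members and 0.10 in all genes. With median centring there were 68 members, against 17.9% of all genes, and medians of -0.51 and -0.06 in the same order. With either scale 0 members were called. The smallest adjusted p of a member was 0.0895 with TPM and 0.0686 with centring, by limma. For single members a change of strain difference between the numbers was therefore not established.

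Fitted among numbers 4 and 5 alone (2 EHBR and 2 SD), 0 members were called in either direction by limma, where 4.15% of all genes were called higher and 1.01% lower. At an unadjusted p under 0.05 there were 6 members higher and 11 lower. Fitted among numbers 1 to 3 alone (3 EHBR and 3 SD), 14 members (15.7%) were called higher and 0 lower, where 4.35% of all genes were called higher and 2.17% lower. Unadjusted there were 28 higher and 2 lower. With no share of all genes at that threshold, neither pair of unadjusted counts is read as a result about the members. With a term for the division in the fit of all 10 samples, 12 members were called higher and 1 lower, where 13.6% of all genes were called higher and 3.36% lower. The 1 lower was Ndufa12, an accessory complex I subunit, with 9.52 ± 2.98 TPM in EHBR and 14.1 ± 2.26 TPM in SD.

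In the 7 called members no EHBR sample overlapped an SD sample, so their log2 differences had to be positive in both parts of the division. Only their sizes are described here. Ndufaf6 had a log2 difference of 1.20 among numbers 4 and 5 and 1.85 among numbers 1 to 3. In the same order, Ndufa10l1 had 0.48 and 0.64, Ndufs1 0.45 and 0.54, Uqcrc2 0.46 and 0.50, and Atp5f1a 0.41 and 0.48. Atp5f1b had 0.18 among numbers 4 and 5 and 0.44 among numbers 1 to 3, and Uqcrc1 0.26 and 0.47.

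Genes of other mitochondrial functions gave context. The lists were chosen with results of these data known. Their calls, here and in the next paragraph, are relative to total TPM, and calls after centring are not given for them. On that scale 3.82% of all genes were called higher and 1.63% lower, and 73.1% were above 0. Of 17 tricarboxylic acid cycle and pyruvate dehydrogenase genes, 6 were called higher and 0 lower in EHBR by limma (11 were not called), and all 17 were above 0. They were led by Dlst and Dlat, with Dlat at 32.0 ± 5.63 TPM in EHBR and 15.0 ± 2.53 TPM in SD. Dlst, a subunit of the 2-oxoglutarate dehydrogenase complex, was at 101 ± 11.0 TPM in EHBR and 63.4 ± 3.13 TPM in SD. Of 38 other assembly factors, 5 were called higher and 0 lower, among them Atpaf1, which assembles the ATP synthase head, at 12.6 ± 0.775 TPM in EHBR and 7.89 ± 1.03 TPM in SD. Bcs1l, which inserts the Rieske protein into complex III, was at 16.3 ± 2.63 TPM in EHBR and 9.84 ± 0.810 TPM in SD. Of 21 import and membrane genes, 4 were called higher and 0 lower, with Hspa9, the matrix chaperone of protein import, at 130 ± 7.85 TPM in EHBR and 73.9 ± 11.2 TPM in SD.

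Of 16 regulators of mitochondrial biogenesis, 1 was called higher and 0 lower. It was Lrpprc, which stabilises mitochondrial messenger RNA, with a log2 difference of 0.71 ± 0.09 (adjusted p = 0.000745 by limma). Nrf1, Gabpa and Tfam were not called (adjusted p = 0.863, 0.268 and 0.302 by limma). Ppargc1a and Ppargc1b did not reach the TPM limit and were not in this fit. Ppargc1a had 1.48 ± 0.569 TPM in EHBR and 0.636 ± 0.296 TPM in SD. Ppargc1b had 0.882 ± 0.235 TPM in EHBR and 0.313 ± 0.181 TPM in SD. Their levels are near the limit, and no test of them is given. Of 5 genes kept for nucleotide exchange, uncoupling and related carriers, 0 were called in either direction. Of 20 electron carrier and coenzyme Q genes 1 was called higher (Coq9) and 0 lower. Of the 13 subunits encoded on mitochondrial DNA, 1 was called higher (Mt-atp8) and 0 lower, and 7 were above 0. Libraries were poly(A) selected, so the level of mitochondrial transcripts also depends on their tails. These 13 took 13.9 to 14.7% of TPM in EHBR numbers 4 and 5 and 12.9 to 14.0% in EHBR numbers 1 to 3. In SD they took 15.5 to 15.9% in numbers 4 and 5 and 11.8 to 12.0% in numbers 1 to 3.

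Other values moved with the division into numbers. Cytosolic ribosomal proteins took 3.41 to 3.77% of TPM in EHBR numbers 4 and 5 and 2.61 to 2.74% in EHBR numbers 1 to 3, and 4.38 to 4.88% in SD numbers 4 and 5 against 2.53 to 2.87% in SD numbers 1 to 3. Of 92 kept, 67 were above in both strains and 0 were below, where 5.49% of all genes were above in both and 25.5% below. Mitochondrial ribosomal proteins, of which 73 were kept, were above in both strains in 21 and below in 2. All 10 hepatocyte markers were kept, and their summed TPM was 159404 to 175009 in EHBR numbers 4 and 5 and 173463 to 184501 in EHBR numbers 1 to 3. In SD it was 138668 to 141750 in numbers 4 and 5 and 156158 to 171032 in numbers 1 to 3. Their part in the division was not tested.

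Markers of other cell types differed between the strains in part. The calls are relative to total TPM, where 3.82% of all genes were called higher and 1.63% lower. Of 6 endothelial markers kept, 3 (Stab1, Stab2 and Kdr) were called higher in EHBR by limma, with a summed TPM of 60.3 to 89.1 in EHBR and 46.2 to 60.8 in SD. Of 6 erythroid markers kept, 1 (Slc4a1) was called higher, with a summed TPM of 1327 to 3315 in EHBR and 982 to 2048 in SD. Of 10 hepatocyte markers 1 (Ass1) was called higher, with a summed TPM of 159404 to 184501 in EHBR and 138668 to 171032 in SD. None of 9 Kupffer cell, 8 stellate cell, 2 cholangiocyte or 3 lymphocyte markers kept was called. Of 3 genes kept from the fat list 1 (Fabp4) was called higher, while Ucp1, which marks brown fat, was at 0 in all 10 samples. Of 5 pancreas markers in the files 1 was kept (Cela1), and it was called lower, at 25.9 ± 4.08 TPM in EHBR and 52.6 ± 9.32 TPM in SD. Their part in the strain differences was not tested.

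Some members are uncertain as measured. Ndufa1, a small X-linked complex I subunit and the shortest member at 213 bases, had 231, 1.47, 226, 0.413 and 226 TPM in EHBR livers 1 to 5 and 231, 312, 0.474, 21.4 and 226 TPM in SD livers 1 to 5. In both strains samples were either at 226 TPM or more or at 21.4 TPM or less, with 1 to 695 reads per sample, and these levels did not follow strain or number. Atp5pb had 32.6, 2.74, 24.8, 2.18 and 8.32 TPM in EHBR and 7.88, 4.14, 11.5, 15.0 and 4.41 TPM in SD. Both genes encode essential subunits, their levels did not follow those of their partners, and the reason was not tested. They account for the lowest strain difference (Ndufa1) and for the lowest differences between numbers in EHBR, -1.50 for Ndufa1 and -1.45 for Atp5pb.

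Near-identical copies add to this. Searched by the symbols of the files, RefSeq's GRCr8 annotation names at least 1 pseudogene copy for 43 of the 86 distinct member symbols. These are 100 copies in all, and of the 7 called members 1, Atp5f1b, had a copy by this search. RefSeq names the called gene on chromosome 9 Ndufa10 and not Ndufa10l1, so copies named for Ndufa10 were not counted. The files also hold a second Ndufa10l1, on chromosome 6, which was at 0 TPM in all 10 samples and was not kept. Among the kept members, Uqcrb, Cox6b1 and Ndufv3 each appear in the files at 2 places. The second copies, on chromosomes 1, 2 and 13, have recovered lengths of 475, 261 and 327 bases, and RefSeq lists Uqcrb-ps1, Cox6b1-ps1 and Ndufv3-ps1 on those chromosomes as pseudogenes. The Uqcrb copy on chromosome 1 had 218 ± 34.4 TPM in EHBR and 215 ± 65.7 TPM in SD. The gene on chromosome 7 had less, 79.0 ± 17.7 TPM in EHBR and 80.7 ± 27.3 TPM in SD. The treatment of reads that match several places was not stated, and the values of these genes are uncertain for that reason. Atp5md, counted with complex V, lies on chromosome 10 in the files (rn6), with a recovered length of 308 bases. RefSeq's GRCr8 annotation gives that symbol as a synonym of Atp5mk on chromosome 1. Whether the place on chromosome 10 holds the gene or a copy was not tested.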

How the data were processed

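Per the labels' protocols, liver RNA of 5 EHBR and 5 SD males was extracted with TRIzol, poly(A) selected and prepared with a strand-keeping kit. Reads were handled with HISAT2 2.1.0, featureCounts 1.6.3, FastQC 0.11.7 and Trimmomatic 0.38 against rn6, per the submitters' processing notes, which give no settings or order. The authors deposited 3 tables of 32883 genes, which hold TPM, FPKM and upper-quartile FPKM, with 1 column per sample. Strain and animal number were read from the titles of the samples.

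Whole reads and gene lengths were recovered from the deposited upper-quartile FPKM values with a tolerance of 0.0002 reads, and a length was found for 11050 of 11093 genes. No label ties the animals to litters or cages, so a p-value reflects only how far these samples spread. Strains were compared over the 11083 kept genes (1 TPM or more in 5 or more samples) by a two-sided limma test with its trend option, on log2(TPM + 1), with strain as the 1 factor (limma 3.58.1, R 4.3.3). The same step was run on simulated data whose spread left out the division between the numbers. That run does not show how the step behaves with the division present, and its outcome is not used here. A fold change on the log2(TPM + 1) scale understates the change of low genes. Whether the strain difference differed between the parts of the division was tested by an interaction term.

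The members, gene lists and the rule for named genes were chosen with earlier results of these data known. Named were all called members, and in each complex the most abundant member, those with the largest and smallest strain difference and the one with the largest division between numbers, and the tissue isoforms. Of the lists, up to 3 called genes with the smallest adjusted p were to be named. Others were named after their values were seen. These are Abcc2, Ndufaf2, Cyc1, Uqcrfs1, Uqcr10, Sdhc, Sdhd, Atp5pb, Atp5md, Atp5if1, Ndufa6, Ndufa12, Ndufb6, Ndufc1, Nrf1, Gabpa, Yy1, Tfam, Ppargc1a and Ppargc1b, and the cell type markers. Alternatives covered the pseudocount (0.1 and 5), the filter, the deposited unit, scaling, length, a term for the numbers, the replicate block, the variance model and each sample left out. Voom on the recovered reads, and the length trend together with the term for the numbers, were added after the data were seen.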

Additional observations from a re-analysis of the deposited data

How the results depend on the processing

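The share of all genes called higher is given in brackets after each count of members. The 7 members called higher in EHBR (3.82%) numbered 3 with FPKM (2.77%), 1 with upper-quartile FPKM (1.95%), 1 with median centring (1.74%), 2 with the length trend removed (2.23%), 12 with a term for the numbers (13.6%), 4 with that term and centring (4.40%), 6 with that term and the length trend removed (5.18%), 13 with sample weights (6.49%), 0 among numbers 4 and 5 (4.15%), 14 among numbers 1 to 3 (4.35%) and 3 with voom on recovered reads (2.73%). The 0 called lower became 1 with the term for the numbers, 4 with that term and centring, and 1 with the length trend removed and that term. With each sample left out in turn, 4 to 8 were higher and 0 to 1 lower, the fewest (4) without EHBR 2, EHBR 4 or SD 1. Fitted with the numbers as a replicate block, 7 were higher (5.77%) and 0 lower, with Atp5f1b lost and Sdha gained. The numbers share no stated origin, and the deviations of same-numbered samples correlated across all genes at 0.134, 0.287, 0.0742, 0.254 and 0.27, while EHBR 1 correlated best with SD 3, so no pairing is claimed. The median strain difference of the members ranged from -0.05 to 0.11 with each sample left out. Ndufaf6 was called under every alternative except among numbers 4 and 5 alone (adjusted p = 0.0605 by limma). The median division in EHBR, 0.22, was 0.28 with FPKM, 0.37 with upper-quartile FPKM and 0.38 with centring, and 0.16 to 0.29 with samples left out. It was lower with quantile normalization (0.17) and with the length trend removed (0.18). In SD, 0.48 was 0.62 with FPKM, 0.84 with upper-quartile FPKM and 0.89 with centring, and 0.44 to 0.52 with samples left out. There too it was lower, at 0.40, with quantile normalization and with the length trend removed. Depth limits the members with few reads, such as Ndufv3 on chromosome 13 and Cox6b2.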
